A study of Arabidopsis thaliana with 9 samples.

Results

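The genes encoded in the mitochondrial genome of Arabidopsis thaliana were followed in whole seedlings of 3 genotypes. Members were all gene models whose identifier starts with ATMG and that held at least 10 read pairs summed over the 9 libraries. 62 of the 33602 gene models met this rule, out of 146 ATMG rows. Another 39 ATMG rows held between 1 and 9 pairs and 45 held none. Just inside the limit lay ATMG00190, ATMG00400 and ATMG00710 with 10 pairs and ATMG00130 and ATMG00450 with 13. Just outside it lay ATMG00270, ATMG00570 and ATMG00890 with 9 pairs and ATMG00910 and ATMG01400 with 8.

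The study compared wild-type (WT) seedlings with 2 lines altered in AT1G67105, the gene of the long noncoding RNA ASCO. One line is labelled as an RNA interference knock-down (RNAi-ASCO) and the other as an overexpression and promoter-trap line (35S-ASCO, after the cauliflower mosaic virus promoter). Seedlings were grown in vitro and each genotype had 3 libraries, which the series design calls biological replicates. All WT and 35S-ASCO libraries and RNAi-ASCO replicate 3 are labelled 16 days old, whereas RNAi-ASCO replicates 1 and 2 are labelled 4 days old. Labelled age and genotype therefore cannot be told apart in most of that group.

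Counts are of read pairs, and levels are given as pairs per 1000000 counted pairs (CPM) after scaling the libraries to one another with TMM, a method that aligns the bulk of genes. Between 27044702 pairs (WT replicate 1) and 126355312 pairs (35S-ASCO replicate 1) were counted per library, so that 3 pairs, used here as the detection floor, corresponded to 0.0237 to 0.111 CPM (counting error only). AT1G67105 itself stood at 4.22 ± 2.09 CPM in WT (SD, n = 3), 19.7 ± 3.01 in RNAi-ASCO and 3616 ± 67.1 in 35S-ASCO. The targeted gene was thus higher, not lower, in the RNAi-ASCO libraries (log2 fold change 2.33, SE 0.25, adjusted p = 0.000867 by the quasi-likelihood test of edgeR with Benjamini-Hochberg adjustment), so the group is referred to by their label only, as the RNAi-labelled libraries. In bulk seedlings, fewer cells or organelles and less RNA in each cannot be told apart.

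Plant mitochondria keep a small set of genes of their own, mostly for subunits of the respiratory chain and the ATP synthase, for assembly of cytochrome c, and for ribosomal RNAs and proteins. The other subunits of the same complexes are encoded in the nucleus and imported. Most plant mitochondrial transcripts carry no stable poly(A) tail, since tails added there promote decay, and many are edited by C-to-U conversion before translation. The libraries were made from poly(A)-selected RNA, and a read that matched equally well in several places was removed by the authors. Both steps bear on how many pairs a mitochondrial gene could keep, since in the Columbia reference chromosome 2 carries a long insertion of mitochondrial DNA. All levels below are of RNA that passed poly(A) selection.

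Of the 62 members, 34 were named from the reference by the rules below and 28 were not. The RefSeq annotation of assembly TAIR10.1 does not list ATMG identifiers. 9 members were named through annotated chromosome 2 copies, and 25 because their model length matched exactly 1 mitochondrial feature and 1 ATMG row. Unnamed members are given by identifier, with no role. Totals by complex or role therefore cover named members only and can miss rows. The annotated copy of unnamed ATMG00560 (209 pairs), AT2G07715, holds 767 of the 952 windows of rpl2, a ribosomal protein gene.

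The sequences below show how gene and copy differ. In TAIR10.1 the insertion, judged by windows shared with the mitochondrial genome, spanned chr2:3239038-3509765. The first set gives 61 bases of nad7 (a subunit of NADH dehydrogenase, complex I), with the mitochondrial sequence at MT:239347-239407 on the minus strand and the chromosome 2 sequence at chr2:3394377-3394437 on the plus strand. Capitals mark the single base that differs within them.
nad7 mitochondrial: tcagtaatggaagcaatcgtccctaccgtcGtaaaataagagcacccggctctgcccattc
nad7 chromosome 2: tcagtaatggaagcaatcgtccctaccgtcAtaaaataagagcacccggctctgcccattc
The same was seen for nad5, another complex I subunit, at MT:236030-236090 on the plus strand and chr2:3397696-3397756 on the minus strand, again with 1 differing base in capitals.
nad5 mitochondrial: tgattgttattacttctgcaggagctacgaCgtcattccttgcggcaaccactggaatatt
nad5 chromosome 2: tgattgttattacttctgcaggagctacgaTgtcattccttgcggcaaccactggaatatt
Neither base is annotated as an editing site.

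Editing separates genomic sequence from RNA in another way. The coding sequence of atp9, the membrane ring subunit of ATP synthase (complex V), is printed whole because it had the highest level per length of all members. It lies at MT:270961-271185 on the minus strand, and capitals mark the 5 cytosines that RefSeq annotates as edited.
atp9: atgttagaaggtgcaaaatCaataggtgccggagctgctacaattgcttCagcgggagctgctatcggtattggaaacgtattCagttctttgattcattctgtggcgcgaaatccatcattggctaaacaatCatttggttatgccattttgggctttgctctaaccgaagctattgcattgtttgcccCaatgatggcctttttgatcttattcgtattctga
The first 90 bases of ccmB, a membrane protein of cytochrome c maturation, lie at MT:18345-18434 on the minus strand and hold 10 annotated edited cytosines, also in capitals. They are shown because ccmB had the highest density of annotated edits among named members, 82.1 per kb of coding sequence.
ccmB: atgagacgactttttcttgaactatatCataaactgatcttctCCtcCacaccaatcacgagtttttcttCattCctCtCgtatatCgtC
The first 90 bases of cox1, a core subunit of cytochrome c oxidase (complex IV), lie at MT:116256-116345 on the minus strand and are given for contrast, since no edit is annotated in cox1.
cox1: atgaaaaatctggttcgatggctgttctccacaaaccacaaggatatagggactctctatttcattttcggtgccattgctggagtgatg

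The 62 members together held 17999 pairs in the 9 libraries, from 982 in WT replicate 1 to 3915 in 35S-ASCO replicate 1. As unscaled CPM of all counted pairs, they took 36.3, 29.8 and 31.5 in WT replicates 1 to 3, 31.3, 28.4 and 31.2 in the RNAi-labelled libraries, and 31.0, 33.0 and 34.1 in 35S-ASCO. The group means were 32.5 ± 3.37, 30.3 ± 1.66 and 32.7 ± 1.58 (SD, n = 3), and the ranges of the 3 groups overlapped. The sum was carried by few genes: the 12 members with the most pairs held 57.6% of all member pairs, and the 27 members too low to test held 750 pairs between them.

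**Figure D1:**
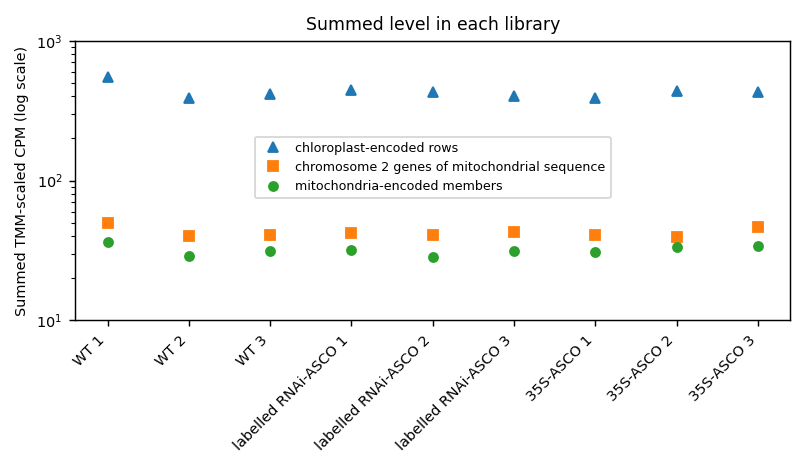
Summed TMM-scaled CPM (y axis, log scale) in each of the 9 libraries (x axis) for the mitochondria-encoded members, the chromosome 2 genes made mostly of mitochondrial sequence, and the chloroplast-encoded rows. In each set the 3 genotypes overlap, and in every library the chloroplast sum lies 12.5 to 15.2 times above the mitochondrial one.

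Chloroplast-encoded rows, the other organelle set whose transcripts mostly lack stable tails, took 455 ± 84.7, 422 ± 20.8 and 415 ± 23.6 unscaled CPM in WT, the RNAi-labelled libraries and 35S-ASCO (SD, n = 3). In summed TMM-scaled CPM, the chromosome 2 genes made mostly of mitochondrial sequence reached 43.6 ± 5.41, 41.8 ± 1.22 and 42.3 ± 3.65. In each library that sum was 1.19 to 1.42 times the sum of the mitochondrial members themselves. These sums cover unlike stretches. AT2G07709, AT2G07711 and AT2G07717, copies of nad7, nad5 and nad4, held 6354, 2900 and 2642 of the 24155 pairs of the chromosome 2 set. Their models take in sequence between exons, which the mitochondrial rows leave out.

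Measured per kb of gene model, members ranged from 0.0284 to 3.92 CPM per kb, with a median of 0.346. The nuclear genes for subunits of the respiratory chain and ATP synthase, a list of 70, had a median of 88.7 CPM per kb. By complex, the nuclear median was 96.4 for complex I, 28.7 for complex II, 88.6 for complex III with cytochrome c, 71.2 for complex IV and 194 for ATP synthase. The highest mitochondrial member, atp9, therefore lay far below the median of each of these nuclear lists in these poly(A)-selected libraries. The chloroplast-encoded rows had a median of 1.98 CPM per kb.

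**Figure D2:**
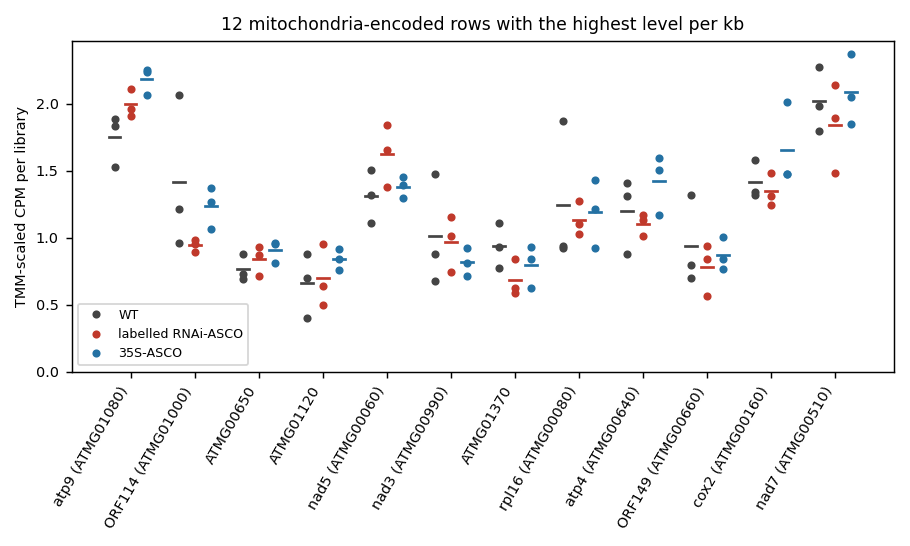
TMM-scaled CPM in each library (y axis) for the 12 mitochondria-encoded rows with the highest level per kb (x axis, in that order), with points coloured by genotype. For most rows the points of the 3 genotypes interleave; WT replicate 1 is the high point of rpl16 and ORF149, and WT replicate 3 of ORF114 and nad3.

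Complex I, the entry point for electrons from NADH, had 7 named members, all tested, with 4247 pairs or 23.6% of member pairs. Summed, they stood at 7.34 ± 1.06 CPM in WT, 7.80 ± 1.16 in the RNAi-labelled libraries and 7.59 ± 0.296 in 35S-ASCO (SD, n = 3). The group means differed by less than the spread within WT.
The row ATMG00510, nad7, which codes for a subunit of the peripheral arm, stood at 1.80, 1.98 and 2.28 CPM in the WT replicates, 2.14, 1.48 and 1.89 in the RNAi-labelled libraries, and 2.05, 1.85 and 2.37 in 35S-ASCO. The lowest value was RNAi-ASCO replicate 2 and the highest 35S-ASCO replicate 3, and all 3 groups overlapped. Its log2 fold change was -0.15 (95% interval -0.55 to 0.25) in the RNAi-labelled libraries and 0.05 (-0.34 to 0.44) in 35S-ASCO, each against WT.
The gene nad5, which codes for a proton-pumping membrane subunit, was counted on separate rows, because its exons lie apart in the genome and are joined by trans-splicing. ATMG00060 stood at 1.51, 1.11 and 1.32 CPM in WT, 1.84, 1.66 and 1.38 in the RNAi-labelled libraries and 1.39, 1.46 and 1.29 in 35S-ASCO. ATMG00513 was lower throughout, at 0.514, 0.487 and 0.521 CPM in WT, 0.773, 0.677 and 0.534 in the RNAi-labelled libraries and 0.602, 0.813 and 0.550 in 35S-ASCO. Every library of both altered lines lay above every WT library for ATMG00513, but not for ATMG00060. Neither row passed the test: ATMG00513 had log2 fold changes of 0.37 (-0.18 to 0.91, adjusted p = 0.369) and 0.33 (-0.19 to 0.86, adjusted p = 0.502) against WT by edgeR. Per kb, ATMG00060 reached 2.66 CPM and ATMG00513 reached 0.420, although both are parts of 1 gene. Only the exons on ATMG00513 were compared with chromosome 2, so whether shared sequence differs between these rows was not tested.
For nad3 (ATMG00990), which codes for a small membrane subunit, values were 0.881, 0.678 and 1.48 CPM in WT, 1.16, 0.742 and 1.02 in the RNAi-labelled libraries and 0.926, 0.813 and 0.712 in 35S-ASCO. WT held both the lowest and the highest library. The membrane subunit genes nad4 (ATMG00580, 0.908 CPM per kb) and nad2 (ATMG01320, 0.616) and the peripheral-arm gene nad9 (ATMG00070, 1.21) overlapped between all groups as well.

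No complex III member was found: the row of cob, the gene of cytochrome b, ATMG00220, held 7 pairs in the 9 libraries and fell below the limit. Complex IV, which passes electrons to oxygen, had 3 members with 2680 pairs, summing to 4.68 ± 1.29, 4.43 ± 0.508 and 5.37 ± 0.890 CPM in WT, the RNAi-labelled libraries and 35S-ASCO.
The gene cox1 (ATMG01360) had the most pairs of any member, 1347. It stood at 3.45, 2.21 and 1.55 CPM in WT, 2.47, 2.07 and 2.17 in the RNAi-labelled libraries and 2.13, 2.75 and 3.06 in 35S-ASCO. The WT libraries alone spanned the whole range of the others, from the highest value of all 9 to the lowest.
The core subunit gene cox2 (ATMG00160) was steadier, at 1.58, 1.35 and 1.32 CPM in WT, 1.49, 1.24 and 1.31 in the RNAi-labelled libraries and 1.48, 2.02 and 1.48 in 35S-ASCO. A single library, 35S-ASCO replicate 2, stood above the rest. That same library was highest for cox3 (ATMG00730), the other core subunit gene, at 1.43 CPM against 0.633 to 1.03 in the other 8.

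Complex V, the ATP synthase, had 5 named members, of which 4 were tested, with 2631 pairs. Their summed level was 4.36 ± 0.290 CPM in WT, 4.46 ± 0.208 in the RNAi-labelled libraries and 4.92 ± 0.342 in 35S-ASCO (SD, n = 3).
The row of atp9 (ATMG01080) stood at 1.84, 1.89 and 1.53 CPM in WT, 2.11, 1.97 and 1.91 in the RNAi-labelled libraries and 2.07, 2.24 and 2.25 in 35S-ASCO. All 6 libraries of the altered lines lay above all 3 of WT, by a small margin at the nearest point. The log2 fold change was 0.32 in 35S-ASCO (95% interval 0.01 to 0.63, unadjusted p = 0.0433, adjusted p = 0.272 by edgeR) and 0.19 in the RNAi-labelled libraries (-0.13 to 0.50, adjusted p = 0.433), so atp9 did not pass in either comparison.
For atp4 (ATMG00640), which codes for a stalk subunit, values were 0.881, 1.31 and 1.41 CPM in WT, 1.01, 1.14 and 1.17 in the RNAi-labelled libraries and 1.17, 1.60 and 1.51 in 35S-ASCO. All 35S-ASCO libraries lay above all RNAi-labelled ones, though the nearest of each both round to 1.17, while WT overlapped both. The genes atp6 (a membrane subunit, ATMG00410) and atp1 (a catalytic-head subunit, ATMG01190) stood at 0.537 and 0.397 CPM per kb, and atp8 (ATMG00480) held only 27 pairs.

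Cytochrome c maturation, the pathway that attaches heme to cytochromes, had 4 members and 280 pairs, or 1.56% of member pairs. Their sum was 0.606 ± 0.182 CPM in WT, 0.450 ± 0.0890 in the RNAi-labelled libraries and 0.434 ± 0.111 in 35S-ASCO.
The row of ccmB (ATMG00110) stood at 0.514, 0.223 and 0.278 CPM in WT, 0.238, 0.109 and 0.224 in the RNAi-labelled libraries and 0.150, 0.140 and 0.151 in 35S-ASCO. All 35S-ASCO libraries lay below all WT libraries, and WT replicate 1 stood above the other 8. The log2 fold change in 35S-ASCO was -1.04 (95% interval -1.92 to -0.16, unadjusted p = 0.0246, adjusted p = 0.212 by edgeR), which did not pass. It rested on 115 pairs in the 9 libraries, and without WT replicate 1 it was -0.73 (adjusted p = 0.447). The gene ccmFN2 (ATMG00960) was tested at 0.292 CPM per kb, and ccmFN1 and ccmFC held 27 and 26 pairs.

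The ribosomal protein genes had 3 named members and 1792 pairs. For rps3 (ATMG00090), a gene of the small ribosomal subunit, values were 2.90, 1.77 and 1.95 CPM in WT, 2.02, 2.10 and 1.93 in the RNAi-labelled libraries and 1.73, 1.74 and 2.03 in 35S-ASCO. For rpl16 (ATMG00080), of the large subunit, they were 1.87, 0.922 and 0.938 CPM in WT, 1.28, 1.03 and 1.10 in the RNAi-labelled libraries and 1.22, 0.925 and 1.43 in 35S-ASCO. WT replicate 1 was the highest library for both genes, which overlap by 134 bases on the same strand (MT:20165-23824). Their levels were 1.21 and 2.21 CPM per kb.
The gene rps12, of the small subunit, starts 45 bases after nad3 on the same strand (MT:288044-288823). It held 23 pairs against 517 for nad3, and the level of nad3 per kb was 22.5 times that of rps12. The ribosomal RNA rows, rrn18 with 47 pairs on a 1935-base model and rrn5 with 17 pairs on 118 bases, were not tested. They stood at 0.0403 and 0.338 CPM per kb in these poly(A)-selected libraries.

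The 10 members named as open reading frames, which have no assigned function here, held 2264 pairs. ORF114 (ATMG01000) had the second highest level per kb of all members, 3.47 CPM. It stood at 1.21, 0.964 and 2.07 CPM in WT, 0.951, 0.983 and 0.896 in the RNAi-labelled libraries and 1.27, 1.37 and 1.07 in 35S-ASCO. WT replicate 3 was the highest library, and the 35S-ASCO libraries all lay above the RNAi-labelled ones. ORF114 overlaps the start of nad3 on the same strand (MT:287740-288400), and WT replicate 3 was the highest library for nad3 too. Against WT, the RNAi-labelled libraries had a log2 fold change of -0.59 (-1.21 to 0.04, adjusted p = 0.210 by edgeR). That was the smallest adjusted p of any member in that comparison.

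The 28 unnamed members held 4041 pairs, or 22.5% of all, and 11 of them were tested. ATMG00650, whose model length of 303 bases is shared by 4 rows, stood at 0.881, 0.731 and 0.695 CPM in WT, 0.713, 0.873 and 0.930 in the RNAi-labelled libraries and 0.815, 0.953 and 0.960 in 35S-ASCO. ATMG00516 stood at 0.477, 0.360 and 0.417 CPM in WT, 0.208, 0.371 and 0.344 in the RNAi-labelled libraries and 0.515, 0.420 and 0.550 in 35S-ASCO. All 35S-ASCO libraries lay above all RNAi-labelled ones for ATMG00516. The log2 fold change between them was 0.67 (95% interval 0.06 to 1.29, unadjusted p = 0.0319, adjusted p = 0.173 by edgeR), the smallest adjusted p of any member in the direct comparison. ATMG01120 and ATMG01370 reached 2.68 and 2.41 CPM per kb and overlapped between all groups.

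The question the design asks, whether either altered line differs from WT, was put to the 35 members with enough pairs, which held 95.8% of member pairs and 112 to 1347 pairs each. They were tested in 1 fit over 22719 genes by edgeR's quasi-likelihood test, with p-values adjusted over all of them. No member rose or fell in any of the 3 comparisons at an adjusted p under 0.05. In the RNAi-labelled libraries against WT, 0 of 35 passed where 11.8% of all genes tested did (6.96% higher and 4.82% lower), and DESeq2 called none. An unadjusted p under 0.05 was found for 0 members by either tool, where edgeR gave one to 27.5% of all genes and 17.8% of genes of like level. In 35S-ASCO against WT, 0 of 35 passed where 1.67% of all genes did (1.36% higher and 0.313% lower). There, 2 (5.71%) had an unadjusted p under 0.05 by edgeR (ccmB and atp9), where 17.4% of all genes and 12.9% of genes of like level did, and 1 by DESeq2, which called none. DESeq2 gave no adjusted p for 7 members there, ccmB among them, so it could not call those. In 35S-ASCO against the RNAi-labelled libraries, 0 of 35 passed where 6.75% of all genes did (3.2% higher and 3.55% lower). In that comparison 1 member (2.86%) had an unadjusted p under 0.05 by edgeR (ATMG00516), where 22.9% of all genes and 18.1% of genes of like level did, and 0 by DESeq2, which called none. Among the 4169 tested genes in the same range of mean level as the members, 6.55%, 0.648% and 5.25% passed in the 3 comparisons.

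**Figure D3:**
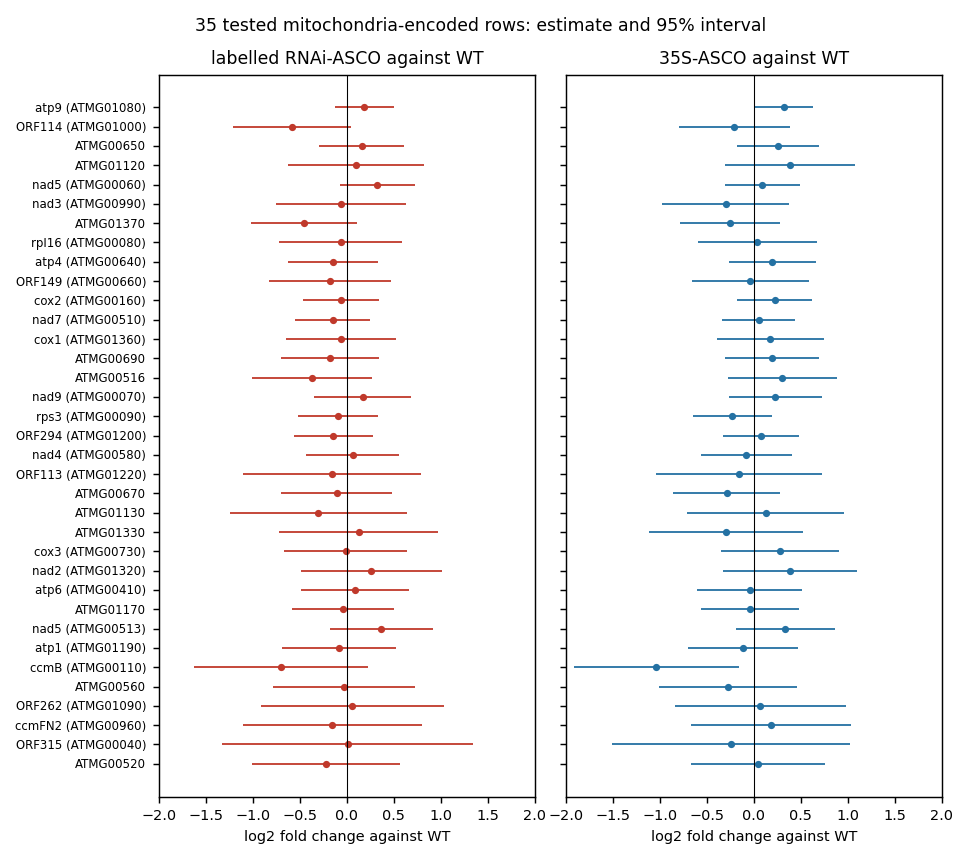
Log2 fold change against WT (x axis) of each of the 35 tested mitochondria-encoded rows (y axis), for the RNAi-labelled libraries and for 35S-ASCO; points are edgeR estimates and lines their 95% intervals. All intervals in the left panel span 0, and in the right panel those of ccmB and atp9 do not.

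The 35 log2 fold changes ranged from -0.70 to 0.37 in the RNAi-labelled libraries, with a median of -0.07 and 12 above 0, where the median over all genes was -0.01. In 35S-ASCO they ranged from -1.04 to 0.39, with a median of 0.05 and 20 above 0, where the median over all genes was again -0.01. In the direct comparison the median was 0.10, with 23 above 0. Both comparisons with WT share the WT libraries. A p that misses the threshold does not show that levels were the same. The 95% intervals had a median half-width of 0.606, 0.576 and 0.594, and 24, 27 and 27 of the 35 lay wholly within 1 log2 unit of 0, so a doubling or halving was outside the interval for those members.

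Separation of the groups without regard to size gave a like picture. The 3 libraries of both groups did not overlap for 2 of 35 members (5.71%) in the RNAi-labelled libraries against WT, namely atp9 and the nad5 row ATMG00513, both higher. Over all genes tested the share was 32.4%, and over genes of like level 23.7%. In 35S-ASCO against WT it was 3 of 35 (8.57%), with atp9 and ATMG00513 higher and ccmB lower, where the share over all genes was 21.9% and over genes of like level 17.6%. In the direct comparison it was 3 of 35 (8.57%), with ORF114, atp4 and ATMG00516 higher in 35S-ASCO, where the share over all genes was 31.4% and over genes of like level 25.1%.

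The spread of members among libraries was also measured. A dispersion index, the variance of counts over that from counting alone, pooled within the 3 groups, is 1 where libraries differ by sampling only. Its median was 1.61 over the 35 tested members, against 2.21 over the 4169 genes of like level, 4.44 over tested chloroplast rows and 4.32 over all genes tested. For a given relative spread the index rises with the count, so the genes of like level are the nearest comparison. The lowest was ATMG00516 at 0.578 and the highest cox1 at 8.50. ORF114 at 5.91, nad3 at 5.11 and rpl16 at 4.33 followed, each with a single WT library apart from the rest. Since ORF114 and nad3 overlap, their high WT replicate 3 may not be 2 separate observations. Only 11 of the 35 exceeded 2.

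Sequence shared with chromosome 2 was then set beside level for the 34 named members, using windows of 50 bases in TAIR10.1. Windows covered the annotated coding sequence or RNA gene, not the whole model where that is longer, as for atp9 (225 of 504 bases), cox3 (798 of 1447) and atp6 (1158 of 1321). No window of cox1, atp4, nad9 or ccmB occurred on chromosome 2. Every coding window of atp9, nad3, nad4, nad2, cox3, atp6 and atp1 did, as did 94.7% of nad7 windows. For nad5 it was 96.3% of 1348 windows, all from the exons on ATMG00513. The exons on ATMG00060 were not covered, so sharing of that row was not measured. Between these lay rps3 with 7.44%, cox2 with 18.5% and rpl16 with 34.6%. Windows also recurred within the mitochondrial genome, most among these protein genes for atp6 (64.2%), rpl16 (34.6%), atp9 (34.1%) and cox2 (25.1%).
The 20 named members with at least 80% of windows shared had a median level of 0.479 CPM per kb, the 6 in between 1.03 and the 8 with none 0.786. ATMG00060 was placed among the 20 by the nad5 value, without windows of its own. Among protein genes of known role the medians were 0.537 (15 members), 1.88 (3) and 1.37 (4). The ranges overlapped widely, and the highest member, atp9, had every coding window shared. How far removal of equal matches lowered any member was not tested. Reads removed as multiple hits made up 1.21 to 1.27% of mapped reads in each library, over the whole genome. Some ATMG models differ in length from the RefSeq genes, so the mitochondrial sequence behind the files was not shown to be that of TAIR10.1.

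**Figure D4:**
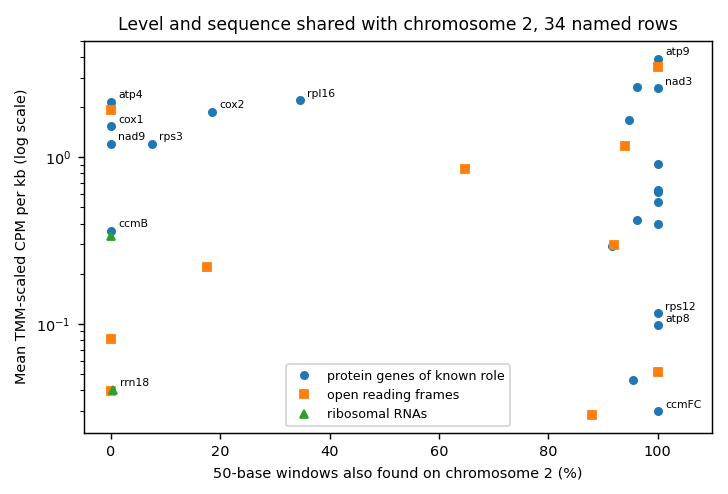
Mean TMM-scaled CPM per kb (y axis, log scale) against the percentage of 50-base windows of the annotated coding sequence or RNA gene also found on chromosome 2 in TAIR10.1 (x axis) for the 34 named mitochondria-encoded rows. Rows with all windows shared run from 0.0297 (ccmFC) to 3.92 (atp9), and rows with none from 0.0395 (ORF120) to 2.15 (atp4). ATMG00060 is drawn at the nad5 percentage, which was measured on the exons of ATMG00513 only.

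For 18 genes the mitochondrial row could be set beside an annotated copy on chromosome 2. The copy held more pairs for 12 genes and the mitochondrial row for 6. Per kb the split was also 12 to 6, but with nad4 higher on the mitochondrial row and cox3 higher on the copy (0.687 against 0.639 CPM). For atp1, 1031 pairs on AT2G07698 were set against 336 on its own row. That copy also held 786 of the 836 windows of ORF294, whose own row held 614 pairs. The pseudogene copy of nad7, AT2G07709, held 6354 pairs against 1162 on nad7 itself, although per kb the 2 were close, at 1.85 and 1.67 CPM, since the copy's model is 6063 bases long and the mitochondrial one 1185. The copy of nad5, AT2G07711, held 2900 pairs against 1122 on both nad5 rows, or 334 on ATMG00513, whose exons it was matched to. It was also the higher per kb, at 2.20 CPM against 1.03 for both rows and 0.420 for ATMG00513. The copy of nad4, AT2G07717, held 2642 pairs against 741, but on a 5949-base model against 1488, and per kb the mitochondrial row was the higher, at 0.908 against 0.789 CPM. The coding exons lie spread over MT:239250-245330 for nad7 and MT:207580-215562 for nad4. These copy models take in sequence between the exons, which the mitochondrial rows leave out. Pairs and levels per kb of nad7 and nad4 therefore compare unlike stretches. So do those of nad5 and ccmFC. AT2G07711 is 2277 bases long against 1446 for ATMG00513, and AT2G07723, the copy of ccmFC, is 2318 bases long against 1359. For cob the split was 702 pairs on AT2G07727 against 7, for ccmFC 852 on AT2G07723 against 26, and for rpl5 419 on AT2G07725 against 5.
The reverse was seen for atp6, with 402 pairs on the mitochondrial row against 2 on AT2G07699. A second copy of atp6, AT2G07741, shared every window and held 0 pairs. For nad3 it was 517 pairs against 58 on AT2G07751. For atp9, 1138 pairs fell on the mitochondrial row and 799 on AT2G07671. Which genome a pair came from was not tested. Of the 128 chromosome 2 genes made mostly of mitochondrial sequence, 31 were tested. By edgeR 0 passed in each comparison, where 11.8%, 1.67% and 6.75% of all genes tested did. At an unadjusted p under 0.05 there were 2, 0 and 0, where 27.5%, 17.4% and 22.9% of all genes were. The smallest adjusted p was 0.0522 by edgeR, for AT2G07815 in the RNAi-labelled libraries against WT (log2 fold change -1.02).

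**Figure D5:**
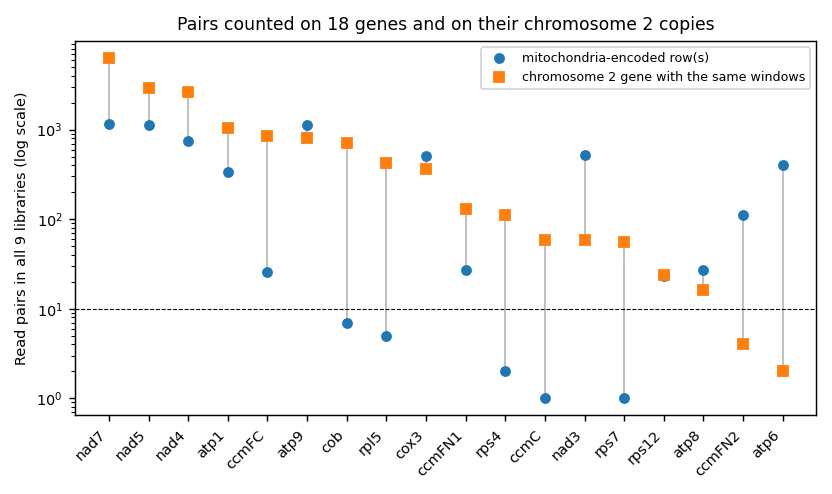
Read pairs summed over the 9 libraries (y axis, log scale) for 18 mitochondrial genes and their annotated chromosome 2 copies (x axis, in order of the copy's pairs). The mitochondrial point of nad5 sums ATMG00060 and ATMG00513, and only the exons of ATMG00513 were matched to the copy. The copy holds more pairs for 12 genes and the mitochondrial row for 6, among them atp9, nad3 and atp6. Model lengths differ, and per kb nad4 and cox3 change sides. The copy of atp1 also holds most windows of ORF294.

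Nuclear partners were read from the same fit. Of the 70 nuclear subunit genes of the respiratory chain and ATP synthase, 69 were tested and 0 passed by edgeR in each comparison, with 6, 5 and 2 (8.7%, 7.25% and 2.9%) at an unadjusted p under 0.05. Over all genes those shares were 27.5%, 17.4% and 22.9%. DESeq2 called 1 in each comparison with WT and 0 in the direct one. Their median log2 fold changes were -0.05, -0.05 and -0.01, and every 95% interval lay within 1 log2 unit of 0.
Among 24 nuclear genes for transcription and RNA processing in mitochondria, 1 rose and 1 fell in the RNAi-labelled libraries against WT, or 8.33% where 11.8% of all genes passed. RPF3 (AT1G62930), a pentatricopeptide repeat protein that acts in processing of mitochondrial transcript ends, stood at 8.22 ± 0.180, 10.9 ± 0.222 and 7.15 ± 1.03 CPM in WT, the RNAi-labelled libraries and 35S-ASCO (SD, n = 3). It rose by 0.41 on the log2 scale (adjusted p = 0.0282 by edgeR). MORF3 (AT3G06790), an editing factor, fell by 0.25 on the log2 scale (edgeR adjusted p = 0.0298), from 23.2 ± 1.48 to 19.5 ± 1.02 CPM. In 35S-ASCO against WT 0 of 24 passed by edgeR, with 4 at an unadjusted p under 0.05, and DESeq2 called 0. In the direct comparison RPF3 and SHOT1 (AT3G60400, of the mitochondrial transcription termination factor family) were lower in 35S-ASCO (8.33% of the list, where 6.75% of all genes passed), with log2 fold changes of -0.60 and -0.28 (adjusted p = 0.00797 and 0.0234 by edgeR).
Among 10 nuclear genes known to respond to mitochondrial stress, AT5G09570, annotated as a Cox19-like CHCH family protein, rose in both lines against WT. It went from 0.863 ± 0.364 CPM in WT to 1.85 ± 0.210 and 2.68 ± 0.289, with log2 fold changes of 1.10 and 1.63 (adjusted p = 0.0365 and 0.0283 by edgeR). AT2G21640, annotated as a marker of the oxidative stress response, rose in 35S-ASCO by 1.01 on the log2 scale (adjusted p = 0.0347 by edgeR), and was 0.71 higher there than in the RNAi-labelled libraries (edgeR adjusted p = 0.0469). By edgeR 1 of 10 passed in the RNAi-labelled libraries (where 11.8% of all genes did), 2 in 35S-ASCO (where 1.67% did) and 1 in the direct comparison (where 6.75% did). The largest log2 fold changes of the list, 2.36 in 35S-ASCO against WT and 1.48 in the direct comparison, did not pass. At an unadjusted p under 0.05 there were 2, 7 and 2 of the 10, against 27.5%, 17.4% and 22.9% of all genes. The median log2 fold changes of the list were 0.47, 0.78 and 0.31, with 9, 10 and 9 of the 10 above 0, while the median over all genes lay between -0.01 and 0.00. Both comparisons with WT share its libraries. The gene of alternative oxidase, AOX1A (AT3G22370), did not pass, at 38.1 ± 7.20, 54.9 ± 1.32 and 66.3 ± 18.4 CPM. Leaving out single libraries moved the counts of calls, to between 1 and 2 for RNA processing in the direct comparison and down to 0 for each other count above 0 in these lists. None remained in the RNAi-labelled libraries once the 2 labelled 4 days were left out, a fit in which the 1 remaining library is assumed to vary like the other groups.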

How the data were processed

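RNA sequencing counts of 9 seedling libraries were used as deposited. Per the labels, polyadenylated RNA was selected and made into stranded TruSeq paired-end libraries. The submitters' processing notes name TopHat2, Bowtie2 and TAIR10, with no role or version. Per the file headers, the authors' deposited values are counts of read pairs on each gene model, from a program named sam2pkm. They cover pairs whose mates aligned properly to the same model, with singletons treated as unmapped and reads with equal best scores removed. Such removal lowers genes with identical copies.

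Groups were taken from titles. Genes were filtered with filterByExpr, scaled by TMM and fitted over all 9 libraries by genotype with edgeR's quasi-likelihood test (edgeR 4.0.16, limma 3.58.1, R 4.3.3). Of all gene models 22719 were tested, with Benjamini-Hochberg adjustment over them and a threshold of 0.05. Standard errors and 95% intervals came from the inverse information scaled by the quasi-dispersion. The script was tested on simulated data. DESeq2 1.42.0 was an alternative, and its missing adjusted p for 7 members in 35S-ASCO against WT was kept as missing. Other alternatives changed the scaling, low-count filter, libraries in the fit, replicate block, depth, count unit and libraries left out. Levels per kb divide CPM by the model length in the files.

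Sharing was counted as 50-base windows of the annotated coding sequence or RNA gene, on either strand, in RefSeq TAIR10.1, the source of all sequences and names. For nad5 the windows covered only the exons on ATMG00513. The ATMG identifiers in the files carry no coordinates. Named genes were the 12 members with the highest level per kb, members of the role lists, rows next to the 10-pair limit, up to 4 genes passing per nuclear list, and annotated chromosome 2 copies. ATMG00516 and AOX1A fell outside that rule and were named after their values were seen. The members and lists were chosen with earlier results of these data known.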

Additional observations from a re-analysis of the deposited data

How the results depend on the processing

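In the 18 alternative settings, 0 mitochondria-encoded members passed an adjusted p of 0.05 in any comparison, as in the results above. Over 1759 values of a member in a comparison and setting, 0 passed and 138 changed sign, none of them above 0.30 in size on the log2 scale in the reported fit. The smallest adjusted p of a member was 0.0678 (without WT replicate 2) for the RNAi-labelled libraries, 0.122 (without WT replicate 2) for 35S-ASCO and 0.0752 (pairs thinned to the smallest library) for the direct comparison. Restricting the summed share to members with no shared window gave 5.65, 5.05 and 5.93 unscaled CPM in WT, the RNAi-labelled libraries and 35S-ASCO.

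Calls in the short nuclear lists moved, and the cause was not tested. For respiratory subunits in the RNAi-labelled libraries, DESeq2 and the filter of at least 1 CPM in 5 libraries gave 1 call each, and leaving out single libraries 0 to 2 (2 without WT replicate 3). In 35S-ASCO, DESeq2 and thinning gave 1 each, and single libraries 0 to 1 (1 without WT replicate 2 or 35S-ASCO replicate 3). For RNA processing in the RNAi-labelled libraries, the fit of only 6 libraries gave 1 and leaving out the 2 libraries labelled 4 days 0. Single libraries gave 0 to 2 there, with 0 without WT replicate 1, RNAi-ASCO replicate 2 or RNAi-ASCO replicate 3, and 1 without WT replicate 2, WT replicate 3 or RNAi-ASCO replicate 1. In the direct comparison, leaving out the libraries labelled 4 days gave 0, and single libraries 1 to 2, with 1 without any RNAi-labelled library or 35S-ASCO replicate 1 or 2.

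For the stress list in the RNAi-labelled libraries, DESeq2, the fit of only 6 libraries and the replicate block gave 2 each, and thinning or leaving out the libraries labelled 4 days 0. Single libraries gave 0 to 3, with 3 without 35S-ASCO replicate 1, 2 without WT replicate 2, and 0 without WT replicate 1, any RNAi-labelled library, or 35S-ASCO replicate 2 or 3. In 35S-ASCO, DESeq2 gave 5, the replicate block 4 and the fit of only 6 libraries 0. Single libraries gave 0 to 4, with 4 without 35S-ASCO replicate 3, 1 without WT replicate 3 or RNAi-ASCO replicate 1 or 3, and 0 without WT replicate 1, RNAi-ASCO replicate 2 or 35S-ASCO replicate 1 or 2. In the direct comparison the filter of at least 1 CPM, thinning, single reads and leaving out the libraries labelled 4 days gave 0 each, and single libraries 0 to 1, with 1 only without WT replicate 3.

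Replicate numbers did not pair the samples: deviations from group means correlated at -0.0232 to 0.0763 for the same number and -0.147 to 0.135 for others, against a limit of 0.1. With the replicate block the smallest adjusted p of a member was 0.240, 0.148 and 0.234, and calls over all genes were 2438, 342 and 1355. Depth limits members under about 100 pairs, which were not tested.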
